A study of Rattus norvegicus with 8 samples.

Results

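The genes described here encode the nuclear subunits of the mitochondrial respiratory chain and of ATP synthase. They were taken by symbol, from the platform's gene annotation, as all genes that begin with Ndufa, Ndufb, Ndufc, Ndufs, Ndufv, Uqcr, Cox4, Cox5, Cox6, Cox7, Cox8 or Atp5, together with Sdha, Sdhb, Sdhc and Sdhd. The rule found 80 genes among the 14506 genes tested. They comprised 32 subunits and 3 assembly factors of complex I, 4 subunits of complex II, 7 of complex III, 16 of complex IV and 16 genes of complex V, plus 2 symbols that RefSeq lists as pseudogenes, Cox6c-ps1 and Ndufs6-ps1. Ndufa4 was counted with complex IV, where the protein is now placed, and Atp5if1, the inhibitor of ATP synthase, with complex V. Cyc1, also in the rule, was not analysed here. None of the 26 symbols searched for subunits encoded by mitochondrial DNA was among the genes tested.

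Ductus arteriosus (DA) and aorta were taken from rat neonates of the inbred strains Brown-Norway (BN) and Fischer344 (F344), 1 h after birth at full term. No genetic change or treatment is named in the labels. The 4 combinations of strain and tissue (F344 DA, F344 aorta, BN DA and BN aorta) had 2 replicate arrays each. RNA came from pooled tissues, 150 ng of total RNA was labelled for each array, and nothing states that the replicates came from separate pools of animals, so the p-values describe no more than the spread of these arrays, which may be technical.

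The DA is the fetal vessel that carries blood past the lungs, and its smooth muscle contracts when oxygen rises at birth. Complexes I to IV pass electrons to oxygen and pump protons, and complex V uses the proton gradient to make ATP. In DA smooth muscle the electron transport chain is also regarded as part of the oxygen sensor, acting through the reactive oxygen species it releases. Most subunits come from nuclear genes that are commonly described as controlled together by the factors NRF1, GABP, ERR and YY1 and the coactivator PGC-1alpha (Ppargc1a).

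The deposited values are on the log2 scale, between 1.07 and 14.2, and the median gene of an array lay between 7.39 and 7.55. The labelled tissues were checked with marker genes. Tfap2b, a transcription factor of DA smooth muscle, lay between 9.25 and 9.92 on the 4 DA arrays and between 5.51 and 6.75 on the 4 aorta arrays. Acta2, smooth muscle actin, lay between 13.64 and 13.82 on all 8 arrays. Array 1 of BN DA stood apart in thymocyte and lymphocyte markers, whose mean level over 10 genes was 7.21 there and 6.05 to 6.14 on the other arrays. Erythroid markers (9 genes) had a higher mean on the first replicate than on the second in every group, by the most in BN DA, with means of 8.92 and 7.73. Cardiomyocyte, skeletal muscle and brown adipocyte lists, whose cells are rich in mitochondria, had means of 6.41 to 6.84, 7.12 to 7.40 and at most 6.25. Of 13 cardiomyocyte markers 11 were higher in BN DA than in F344 DA, with a median difference of 0.26. Between BN DA and BN aorta 8 of 13 were higher in the DA, with a median of 0.07. In both comparisons 0 passed the threshold used below, and their part in the results below was not tested. In such bulk samples fewer cells of a type and less RNA per cell cannot be told apart.

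RefSeq's promoter table (build GRCr8, 250 bases before to 50 after each gene's start) held an entry for 70 of the 80 genes. They were searched on both strands for short core letters of the 4 factors named above. The NRF1 core CGCATGCG occurred in 8 of the 70 (11.4%), against 2.7% of the 11951 array genes with an entry and 1.86% of all 27457 genes. For the GABP core CCGGAAG the count was 21 (30%), against 13.1% and 9.63%. The YY1 core AAGATGGC occurred in 13 (18.6%), against 4.33% and 3.62%, and the ERR core TCAAGGTCA in 2 (2.86%), Atp5mc3 and Sdhd, against 0.234% and 0.441%. At least 1 core was present in 33 (47.1%), against 18.5% and 14.3%, and in 0 of the 70 did matches of different cores overlap. A match is a description of the letters and was not tested as a binding site.

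Windows around a core that lies before the start are shown for 5 genes, those with such a core among the 9 of the 80 whose values differed by at least 1 (log2) between the BN DA arrays, a pattern described further on. Capitals mark the core, which in Uqcrh is read on the opposite strand. All 5 genes lie on the minus strand of GRCr8, and each window is written 5′ to 3′ along the gene.
Ndufa6, GABP core, chr7:115750481-115750527: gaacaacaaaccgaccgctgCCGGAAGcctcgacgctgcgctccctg
Uqcrh, GABP core, chr5:134790939-134790985: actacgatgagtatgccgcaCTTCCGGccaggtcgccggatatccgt
Atp5mg, NRF1 core, chr8:54130624-54130657: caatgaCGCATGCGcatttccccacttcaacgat
Atp5po, NRF1 core, chr11:44657514-44657561: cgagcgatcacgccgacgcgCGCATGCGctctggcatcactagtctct
Atp5pf, NRF1 core, chr11:37375243-37375290: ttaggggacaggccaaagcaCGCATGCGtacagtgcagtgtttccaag

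Atp5pf, the coupling factor subunit of ATP synthase, also held a GABP core nearer its start, and Atp5mg a GABP core as well. Cox4i2, the gene that changed in the comparisons below, had no entry in the promoter table.

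The first question was whether the DA differed from the aorta in these genes within each strain. In F344, 1 of the 80 genes passed limma's test (Benjamini-Hochberg adjusted p over all genes under 0.05), and it was lower in the DA. Over all 14506 genes 14% passed and 5.12% passed as lower in the DA, and among the 7253 genes with a mean above the median gene 9.8% passed. At an unadjusted p under 0.05 the count was 3 of 80 (3.75%), against 29.5% of all genes. The arrays of DA and aorta did not overlap for 33 of the 80 genes (41.2%), against 67.4% of all genes. The 80 genes had a median DA minus aorta difference of -0.003 on the log2 scale, with quartiles of -0.11 and 0.14, against -0.04 over all genes and -0.17 over the brighter genes. That median turned positive when the arrays were normalized again, to 0.12 with quantile normalization, 0.14 with cyclic loess and 0.21 with centring on brighter genes, which alone moved the median of all genes to 0.16.

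Cox4i2 was the gene that changed. It encodes the alternative isoform of complex IV subunit 4, known from lung and from oxygen sensing in pulmonary artery muscle and carotid body. In F344 its values were 8.06 and 7.80 on the DA arrays and 8.58 and 8.67 on those of the aorta. In BN they were 8.80 and 8.73 (DA) and 9.12 and 8.73 (aorta). The F344 DA arrays were the lowest of the 8, below every array of the other groups. In F344 the DA was lower than the aorta by 0.70 ± 0.16 (SE, n = 2 arrays a group), or 1.62-fold (95% confidence interval of the log2 difference -1.05 to -0.34, adjusted p = 0.0192, limma). In BN the difference was -0.16 and did not pass.

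The widely expressed isoform of the same subunit, Cox4i1, read 10.42 and 10.45 on the F344 DA arrays, against 10.22 and 10.39 in the aorta. Its arrays lay close together in F344, with a difference of 0.14, in the opposite direction to that of Cox4i2. In BN it read 10.57 and 9.49 in the DA and 10.13 and 9.74 in the aorta, so the arrays of each BN group lay further apart than the groups did. None of the 4 comparisons passed for Cox4i1.

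The F344 call for Cox4i2 rested on few arrays. Calls over all genes fell too in the fits given next, from 14% to 10.5% with repeated quantile normalization and 9.37% with cyclic loess. Its adjusted p in limma was 0.155 without F344 DA replicate 2, 0.0932 without F344 aorta replicate 1 and 0.123 without F344 aorta replicate 2, with differences of -0.57, -0.74 and -0.65. After repeated quantile normalization it was -0.51 (limma, adjusted p = 0.0526), and after cyclic loess -0.49 (0.0558). The direction was the same in all of these.

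Markers of other cell types differed between the same groups. Of 9 endothelial markers 5 passed as lower in F344 DA than in F344 aorta (Cldn5, Sox17, Sox18, Tek and Tie1) and 0 as higher, with a median difference of -0.69. The mean endothelial level in F344 was 8.30 and 8.26 on the DA arrays and 8.93 and 8.77 on those of the aorta. In BN it was 8.88 and 8.77 (DA) and 8.71 and 8.80 (aorta), so the F344 DA arrays were the lowest for this list. Of 9 macrophage markers 3 passed as lower in F344 DA (C1qa, C1qc and Csf1r), with list means of 7.35 and 7.22 in the DA and 7.92 and 7.67 in the aorta. Macrophage means in BN were 7.53 and 7.92 (DA) and 8.22 and 8.14 (aorta), so the F344 DA arrays were lowest there too. They were also lowest for 10 proliferation markers, with means of 8.83 and 8.68 there and 8.94 to 9.11 on the other arrays. Of these, 0 passed between tissues in F344. Of 8 fibroblast markers 4 passed as lower (Col3a1, Pdgfra, Pi16 and Scara5), with means of 10.60 and 10.52 against 11.16 and 11.11. Of 9 smooth muscle markers 3 passed as higher (Actg2, Cnn1 and Des). In BN, 3 of the 8 fibroblast markers also passed as lower in the DA (Col3a1, Pdgfra and Scara5). The BN list median was -0.43, against -0.54 in F344. Macrophage and smooth muscle lists had BN medians of -0.33 and 0.29, against -0.49 and 0.25 in F344, with 0 passing in BN. The part of these cell types and of proliferation in the Cox4i2 result was not tested.

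**Figure D1:**
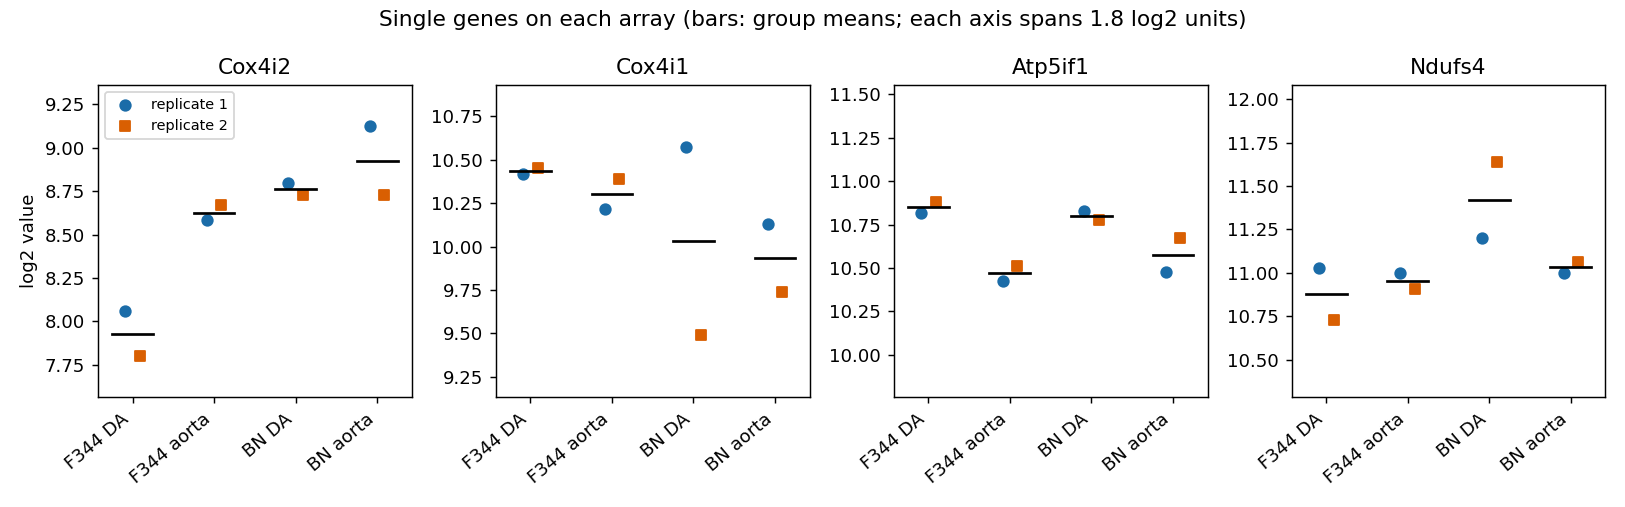
Log2 values of Cox4i2, Cox4i1, Atp5if1 and Ndufs4 on each of the 8 arrays (circles, replicate 1; squares, replicate 2; bars, group means; each vertical axis spans the same log2 range). Cox4i2 was lowest on both F344 DA arrays, at 8.06 and 7.80, while the BN DA arrays of Cox4i1 lay at 10.57 and 9.49.

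Atp5if1 encodes the protein that stops ATP synthase from running backwards when respiration fails. In F344 it read 10.81 and 10.88 on the DA arrays, against 10.43 and 10.51 on those of the aorta. In BN the values were 10.83 and 10.77 against 10.48 and 10.67. Both DA groups lay above both aorta groups with no overlap of arrays. The F344 difference was 0.38 ± 0.12 (SE, n = 2 a group, limma adjusted p = 0.0747), short of the threshold, and the BN difference was 0.23. It passed in F344 after repeated quantile normalization (0.48, limma adjusted p = 0.0399), cyclic loess (0.50, 0.0338) and centring on brighter genes (0.59, 0.0231), and with array weights (0.0244).

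Uqcrb, the quinone-site subunit of complex III, lay lower in the DA. It read 11.47 and 11.13 in F344 DA against 11.66 and 11.66 in F344 aorta, and 11.51 and 11.61 in BN DA against 11.86 and 12.05 in BN aorta. The aorta arrays were above the DA arrays in each strain. The differences were -0.36 ± 0.15 in F344 (limma adjusted p = 0.137) and -0.39 ± 0.15 in BN (0.253), and neither passed. Its 3 probe sets gave -0.36, -0.38 and -0.37 in F344. Ndufb11, an accessory subunit in the membrane arm of complex I, differed by 0.29 in F344 and 0.35 in BN, and Cox8c, a testis isoform of complex IV, by 0.45 ± 0.23 in F344, all short of the threshold. Cox8c read between 5.24 and 6.16 on the 8 arrays, low on the scale of the array.

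In BN, 0 of the 80 genes passed limma's adjusted threshold between DA and aorta, against 1.81% of all genes, and 7 (8.75%) had an unadjusted p under 0.05, against 14%. The groups did not overlap for 14 genes (17.5%), against 37.3% of all genes. The smallest adjusted p was 0.124, for Cox6a2, the heart and skeletal muscle isoform of complex IV subunit 6A. Cox6a2 read 7.42 and 7.09 on the BN DA arrays, against 6.80 and 6.72 in BN aorta. The F344 values were 6.99 and 7.06 (DA) and 6.84 and 6.77 (aorta). Every DA array was above every aorta array, with a BN difference of 0.49 ± 0.14. Ndufb6, an accessory complex I subunit, differed by 0.39 in BN, and Atp5me, a membrane subunit of ATP synthase, by 0.32 ± 0.14. Without BN DA replicate 2 the count was 2, Cox6a2 (0.65, limma adjusted p = 0.0408) and Ndufa3, or 2.5% of the 80, against 3.12% of all genes in the same fit.

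The median difference between DA and aorta in BN was 0.08, with quartiles of -0.05 and 0.22, against -0.001 over all genes. It depended on which BN DA array was kept and ranged from -0.12 to 0.32 when single arrays were left out, with the highest value without replicate 2. The 2 BN DA arrays themselves differed from each other by a median of 0.47.

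The complexes were alike in both tissue comparisons in that few genes passed. In F344, 12 of 32 complex I subunits had a positive DA minus aorta difference (median -0.06), 2 of 7 in complex III (-0.04), 11 of 16 in complex IV (0.14) and 8 of 16 in complex V (-0.002). In BN the positive differences numbered 24 of 32 in complex I (median 0.11), 3 of 7 in complex III (-0.19), 12 of 16 in complex IV (0.12) and 9 of 16 in complex V (0.03). Complex II, whose 4 genes also serve the citric acid cycle, had medians of -0.01 and 0.03. All these medians were smaller in size than 0.20, the SD between replicates of the median level of all 80 genes, pooled over the groups. That SD came mostly from BN DA, whose arrays had median levels of 9.50 and 8.94, so it does not measure the spread in F344. The F344 arrays had 9.19 and 9.18 in the DA and 9.20 and 9.29 in the aorta. The differences between complexes were not tested.

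**Figure D2:**
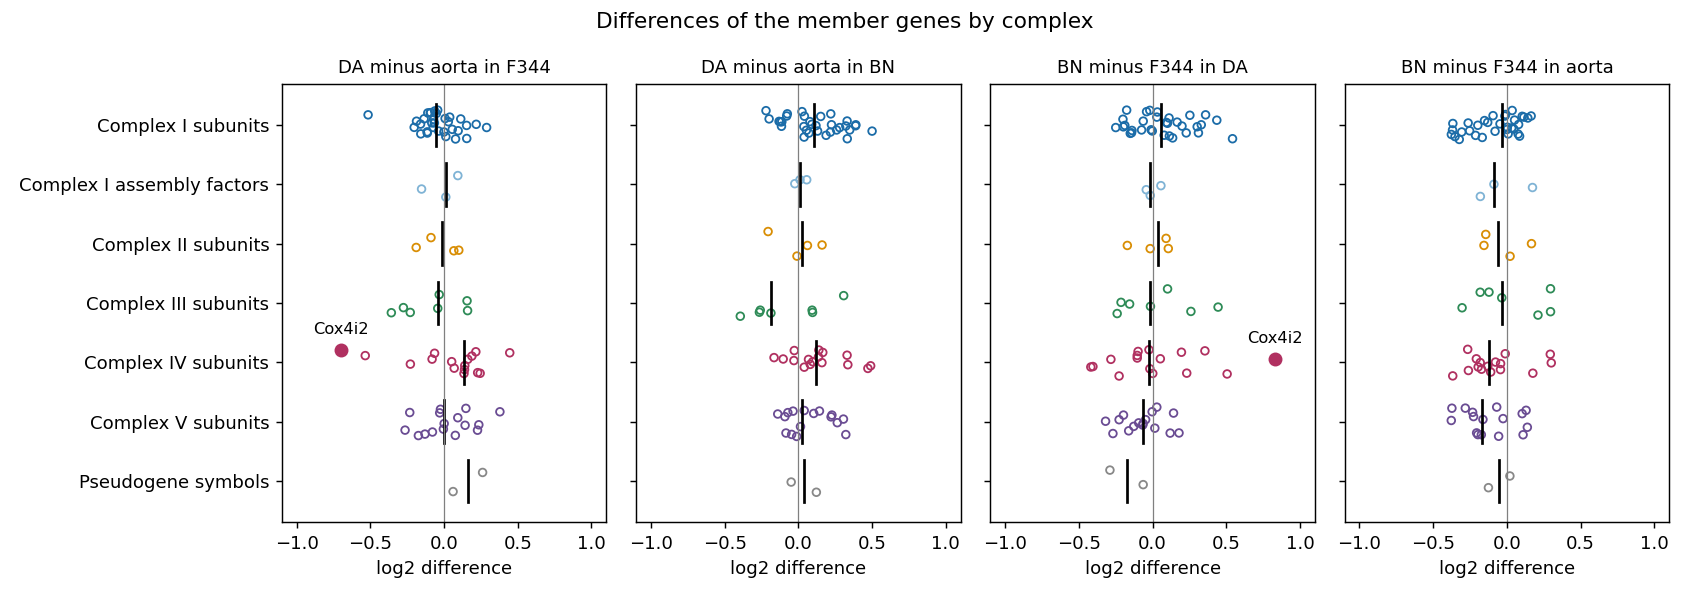
Log2 differences of the 80 genes (points) in the 2 tissue comparisons and the 2 strain comparisons, in rows by complex, with vertical bars at each row's median; filled points are genes at an adjusted p under 0.05. Cox4i2, at -0.70 in the F344 tissue comparison and 0.83 between strains in the DA, is the one filled point, and most other genes lie near 0.

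The second question was whether the strains differed within a tissue. In the DA, 1 of the 80 genes passed limma's test, higher in BN, against 4.53% of all genes and 2.43% of all genes higher in BN. At an unadjusted p under 0.05 the count was 5 (6.25%), against 22.8%, and the groups did not overlap for 16 genes (20%), against 50.1% of all genes. The median BN minus F344 difference was -0.02, against -0.003 over all genes and 0.11 over the brighter genes. It was -0.10 after repeated quantile normalization, -0.11 after cyclic loess and -0.16 after centring on brighter genes, which moved the median of all genes to -0.15.

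The gene that passed was again Cox4i2. BN DA was higher than F344 DA by 0.83 ± 0.16 (SE, n = 2 a group), or 1.78-fold (95% confidence interval 0.48 to 1.19, limma adjusted p = 0.0259). This comparison and the F344 tissue comparison share the 2 F344 DA arrays, and those are the arrays on which Cox4i2 was low. In the aorta BN was higher by 0.30 ± 0.16, which did not pass (limma adjusted p = 0.998). The difference between the BN and F344 tissue differences, tested as an interaction, was 0.53 ± 0.22 (limma adjusted p = 0.483) and did not pass.

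The strain call for Cox4i2 also rested on few arrays. Calls over all genes fell too in the fits given next, from 4.53% to 0.813% with only the arrays compared. Its limma adjusted p was 0.076 without F344 DA replicate 1 (difference 0.96), 0.193 without F344 DA replicate 2 (0.70), 0.0511 without either F344 aorta array (0.83), and 0.0646 when the fit held only the arrays compared (0.83). One endothelial marker of 9, Sox17, passed as higher in BN DA, with a list median of 0.56, and 1 macrophage marker of 9, C1qc, with a list median of 0.44. One lymphocyte marker of 10, Cd4, and 2 proliferation markers of 10, Bub1 and Top2a, also passed as higher in BN DA. Their part in the strain difference was not tested.

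Ndufs4, a complex I accessory subunit needed for assembly of its electron input module, had the next smallest p. It read 11.20 and 11.64 on the BN DA arrays and 11.03 and 10.73 on those of F344 DA, and the 4 aorta arrays lay between 10.90 and 11.06. Both BN DA arrays were above all others. The strain difference in the DA was 0.54 ± 0.17 (limma adjusted p = 0.0964) and did not pass. Ndufs7, an iron-sulfur subunit of complex I, differed by 0.44, Ndufb9, an accessory subunit, by 0.36 and Cox7b, a complex IV subunit, by 0.51 ± 0.22, none past the threshold.

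The DA strain result changed most with the BN DA arrays. Without BN DA replicate 1, 7 genes passed, of which Cox4i2 and Ndufs4 were higher in BN and Atp5f1a, Atp5pf, Cox4i1, Cox7c and Uqcrh lower. These were 8.75% of the 80, against 6.51% of all genes in the same fit. Without BN DA replicate 2, 4 genes passed (5%), all higher in BN: Cox4i2, Cox7b, Ndufa3 and Ndufs8, against 8.5% of all genes in that fit. Cox4i2 was called in both. The median difference was -0.21 in the first case and 0.21 in the second.

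In the aorta, 0 of the 80 genes passed limma's adjusted threshold between strains, against 0.159% of all genes, and 1 (1.25%) had an unadjusted p under 0.05, against 5.22%. The groups did not overlap for 30 genes (37.5%), against 35.7% of all genes. The median BN minus F344 difference was -0.08, against -0.003 over all genes, and 28 of the 80 differences were positive. The smallest p belonged to Atp5me, which read 7.54 and 7.41 in BN aorta and 7.91 and 7.80 in F344 aorta. The DA arrays read 7.95 and 7.65 (BN) and 7.68 and 7.68 (F344). BN aorta was the lowest group, with a difference of -0.38 ± 0.14 from F344 aorta (limma adjusted p = 0.788). Uqcrb differed by 0.30, Uqcrc1, a core protein of complex III, by -0.30, and Ndufa4 by 0.29, none past the threshold.

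The dependence of the tissue difference on strain was tested as an interaction. None passed, 0 of the 80 genes and 0% of all genes by limma's adjusted p, while 2 of the 80 (2.5%) and 9.67% of all genes had an unadjusted p under 0.05. These were Atp5me, at 0.50 ± 0.19, and Cox4i2. The largest interaction value was that of Cox7b, at 0.70 ± 0.31, which did not pass. The median was 0.06 with the deposited values and -0.05, -0.05 and -0.10 after repeated quantile normalization, cyclic loess and centring.

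For most of the genes the fit bounded the size of a difference between these arrays. It sets no bound for animals, because the replicates may be technical. The 95% confidence interval lay within a 2-fold change in either direction for 75 of the 80 genes between tissues in F344, 76 in BN, 73 between strains in the DA and 74 in the aorta. From the estimate to either bound it spanned a median of 0.42 on the log2 scale, so smaller differences were not detectable in most genes. The intervals were not adjusted for the number of genes, and some larger differences also failed the adjusted threshold, such as 0.54 for Ndufs4. They use 1 spread for all groups. The replicate difference had an SD over the 80 genes of 0.44 in BN DA, 0.32 in BN aorta, 0.22 in F344 DA and 0.20 in F344 aorta. The residual SD of the 80 genes had a median of 0.226, against 0.135 for the brighter genes and 0.146 for all genes.

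The tissue-restricted isoforms of complex IV were considered as a group, because they replace the common subunits in muscle, lung or testis. Of 8 isoforms listed, 5 were measured: Cox4i2, Cox6a2, Cox6b2, Cox8b and Cox8c. With the deposited values Cox4i2 passed in 2 comparisons and the other 4 in none, while after repeated quantile normalization Cox8b passed as lower in F344 DA than in F344 aorta. Cox8b, the heart and skeletal muscle isoform of subunit 8, read between 5.44 and 5.67 on all arrays, and Cox6b2, a testis isoform, between 8.17 and 9.13. Among the 6 widely expressed counterparts measured (Cox4i1, Cox6a1, Cox7a2, Cox7b, Cox8a and Ndufa4) 0 passed in any comparison by limma, and 1, Cox7b, had an unadjusted p under 0.05, between strains in the DA.

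A list of nuclear core subunits, most of which carry catalytic or electron-transfer centres, was also described apart. Of 15 symbols, 11 were measured: Ndufs1, Ndufs3, Ndufs7, Ndufs8, Ndufv1 and Ndufv2 of complex I, the flavoprotein Sdha and iron-sulfur protein Sdhb of complex II, the Rieske protein Uqcrfs1 of complex III, and Atp5f1a and Atp5f1b of complex V. None passed in any of the 5 contrasts by limma, and Ndufs7 alone had an unadjusted p under 0.05, between strains in the DA. Their median differences were -0.07 between tissues in F344, -0.09 in BN, -0.13 between strains in the DA and -0.05 in the aorta. Sdha differed by -0.19 and -0.21 between tissues in F344 and BN, and Uqcrfs1 by -0.23 and -0.26. Atp5f1b, the catalytic beta subunit, lay between 11.16 and 11.44 on all 8 arrays, with no difference between groups larger than 0.13 in size.

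**Figure D3:**
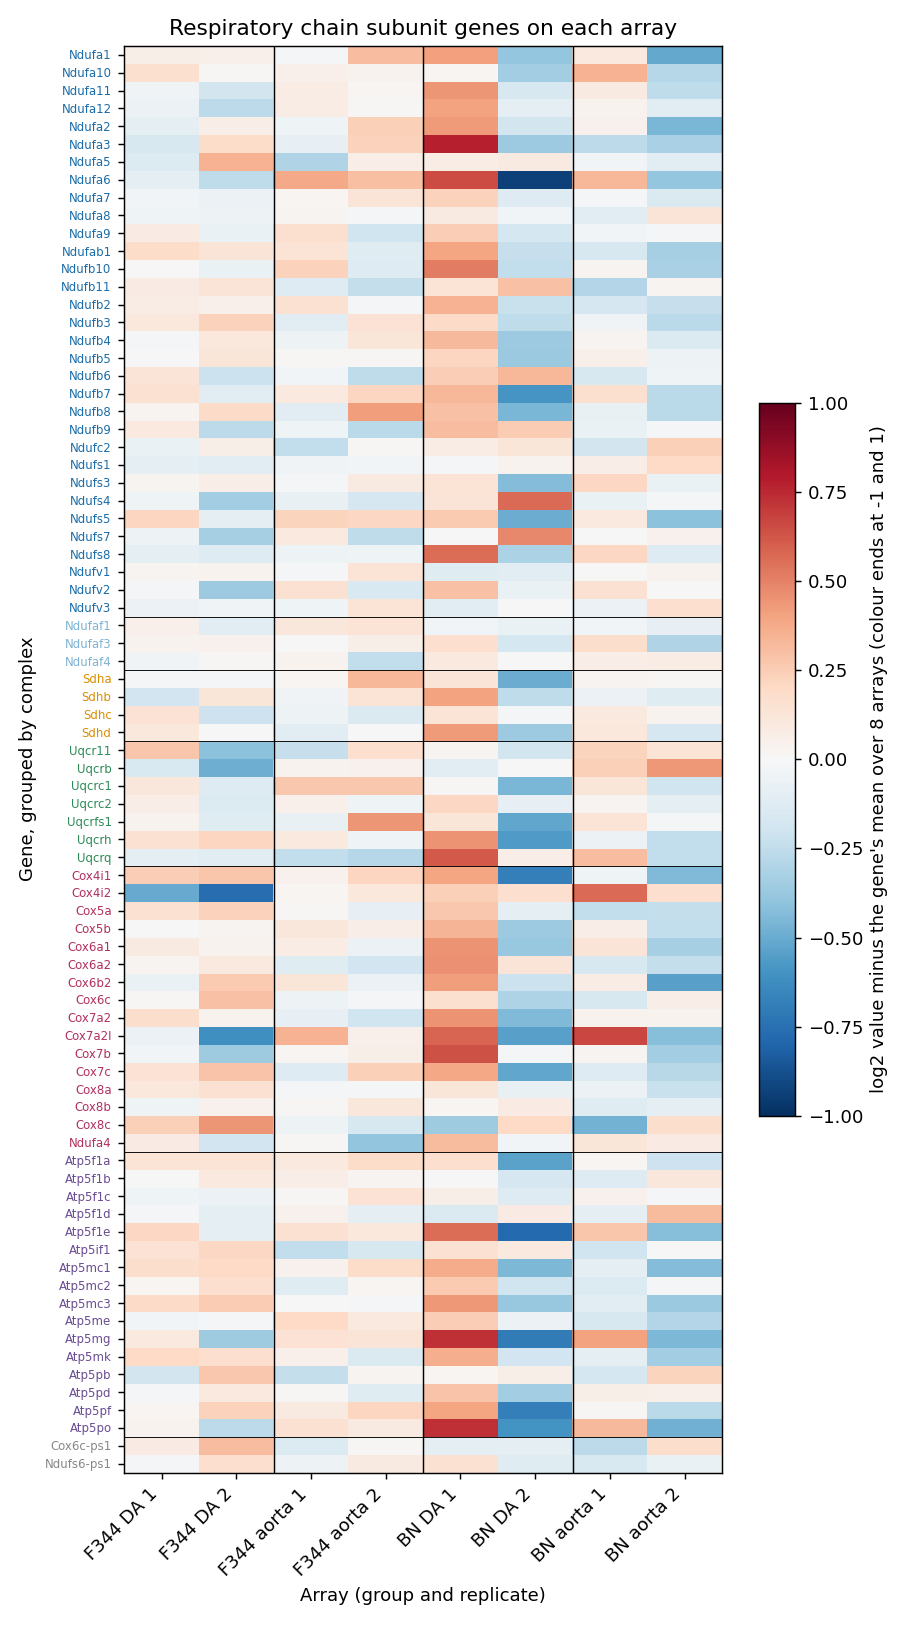
Log2 value of each of the 80 genes (rows, by complex) on each of the 8 arrays (columns), minus the gene's mean over all arrays; red is above and blue below that mean, with the colours ending at -1 and 1. Replicate 1 of BN DA is red and replicate 2 blue over most rows, whereas Cox4i2 is blue on both F344 DA arrays.

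The 2 BN DA arrays differed in these genes across all complexes. On replicate 1, 66 of the 80 genes (82.5%) were higher than on replicate 2, with a median difference of 0.47 and a range of -0.55 to 1.58. By complex, 23 of 32 genes of complex I were higher on replicate 1 (median 0.47), 4 of 4 of complex II (0.64), 6 of 7 of complex III (0.47), 14 of 16 of complex IV (0.55) and 14 of 16 of complex V (0.59). In BN aorta 55 of 80 were higher on replicate 1, with a median of 0.13. In F344 the counts were 41 of 80 in each tissue, with medians of 0.01 in the DA and 0.002 in the aorta. Of the 7253 brighter genes, 58.3% were higher on replicate 1 in BN DA, with a median of 0.06, and 62.6% in BN aorta, with a median of 0.07. The share of the 80 genes in BN aorta, 68.8%, was thus near that of the brighter genes. The median level of the 80 genes was 9.50 and 8.94 on the BN DA arrays, 9.18 and 9.06 in BN aorta, and 9.18 to 9.29 on the 4 F344 arrays, so the BN DA arrays lay on either side of all others.

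Some genes differed more than 2-fold between the BN DA arrays. Ndufa6, a LYR-motif accessory subunit of complex I, read 9.15 and 7.57, and Atp5mg, subunit g of ATP synthase, 8.65 and 7.22. Atp5f1e, the epsilon subunit of the ATP synthase stalk, read 11.09 and 9.75, and Atp5po, the oligomycin-sensitivity subunit, 9.09 and 7.77. Ndufa3 read 9.86 and 8.72, and Cox7a2l, a factor for joining complexes III and IV, 10.93 and 9.81. These 6 were the largest differences, and Cox4i1, Atp5pf and Uqcrh also differed by at least 1 on the log2 scale, making 9 of the 80. A difference of that size was found for 200 of all 14506 genes and 124 of the 7253 brighter genes. Among 67 cytosolic ribosomal protein genes it was found for 14. In BN aorta the same direction was seen for all 6, by 0.73 for Ndufa6, 0.86 for Atp5mg, 0.71 for Atp5f1e, 0.81 for Atp5po, and 0.06 for Ndufa3, and Cox7a2l read 11.02 and 9.93 there. In contrast, Ndufs4 (11.20 and 11.64), Ndufs7 (10.21 and 10.69) and Cox8c (5.36 and 5.91) were lower on replicate 1 of BN DA.

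Across the 80 genes the replicate difference in BN DA and that in BN aorta had a Pearson correlation of 0.75, given as a description over genes, which are not independent replicates. For the other pairs of groups it was 0.37 (F344 DA with F344 aorta), 0.36 (F344 DA with BN aorta), 0.08 (F344 DA with BN DA), 0.05 (F344 aorta with BN aorta) and -0.09 (F344 aorta with BN DA). All these differences share the order of the replicate numbers.

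Other gene groups differed between the BN DA arrays as well. Of 67 genes for cytosolic ribosomal proteins, 64 were higher on replicate 1, with a median of 0.74, and in BN aorta 58, with a median of 0.40. Their mean level was 11.08 and 10.41 on the BN DA arrays and 10.80 to 10.85 on the F344 arrays. The medians between BN DA arrays were 0.26 for 19 glycolysis genes, 0.23 for 66 mitochondrial ribosomal proteins and 0.18 for 11 citric acid cycle genes. Thymocyte and erythroid markers were also higher on replicate 1 of BN DA, as given above. Their part in the replicate difference was not tested.

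**Figure D4:**
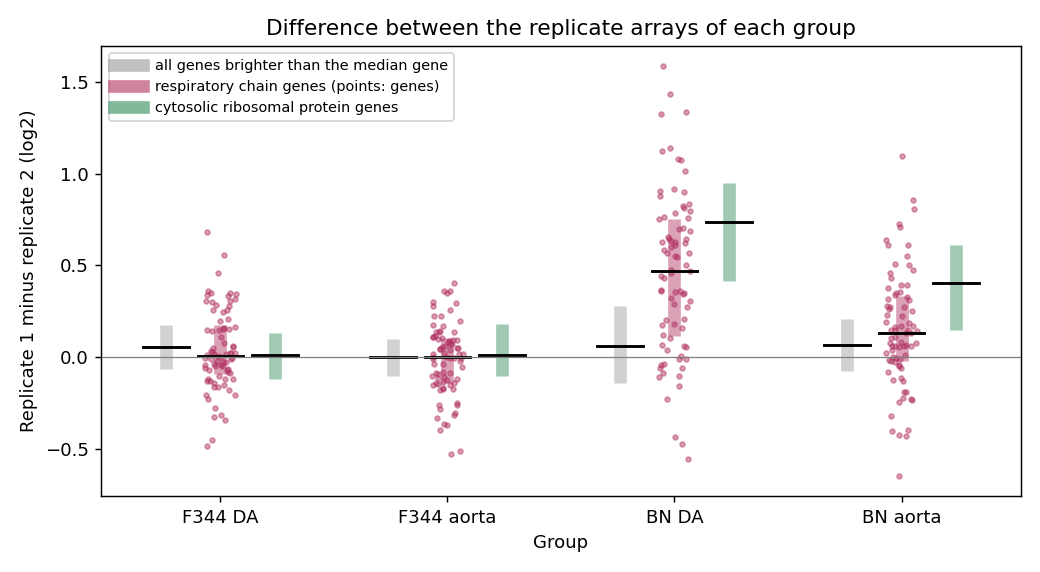
Replicate 1 minus replicate 2, on the log2 scale, within each of the 4 groups, for the 80 respiratory chain genes (points), all genes brighter than the median gene and 67 cytosolic ribosomal protein genes; shaded bars span the quartiles and black lines mark medians. The respiratory chain median is 0.47 in BN DA and 0.13 in BN aorta, and 0.01 or less in the F344 groups.

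Genes that work beside the respiratory chain were counted from lists chosen by function. The assembly factors within the set, Ndufaf1, Ndufaf3 and Ndufaf4 of complex I, had differences between -0.18 and 0.17 in the 4 comparisons, and none passed. Of 22 measured assembly factors of complexes II to V, 11 citric acid cycle genes, 13 genes for the upkeep and transcription of mitochondrial DNA, and 10 genes for cytochrome c, translocases and uncoupling, 0 passed in any contrast by limma, with at most 3 at an unadjusted p under 0.05 in 1 list and contrast. The mitochondrial DNA list had a median of -0.24 between tissues in F344 and 0.23 between strains in the DA. Of 66 mitochondrial ribosomal proteins, 2 passed, both higher in BN DA than in F344 DA: Mrpl4 (0.86 ± 0.14, limma adjusted p = 0.0174) and Mrps26 (0.70 ± 0.13, 0.0252). Over all genes 4.53% passed in that comparison. Of 19 glycolysis genes, 2 passed, both lower in F344 DA than in F344 aorta: Hk2, a hexokinase that docks on mitochondria (-0.63 ± 0.14, limma adjusted p = 0.0181), and Ldhb, a lactate dehydrogenase subunit (-0.61 ± 0.17, 0.0423). The share of all genes passing between tissues in F344 was 14%.

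Among 11 regulators of mitochondrial genes, Ppargc1a, the coactivator PGC-1alpha, differed most. It read 7.87 and 8.17 on the BN DA arrays, and the other 6 arrays lay between 6.08 and 6.43. The BN DA arrays stood apart from all others. BN DA was higher than BN aorta by 1.76 ± 0.17 (limma adjusted p = 0.00248) and higher than F344 DA by 1.69 ± 0.17 (0.00315), 2 comparisons that share the BN DA arrays. The interaction was 1.66 ± 0.23 (limma adjusted p = 0.107) and did not pass. In the same 2 comparisons the 80 respiratory chain genes had medians of 0.08 and -0.02, with 0 and 1 genes called. Over all genes 1.81% and 4.53% were called. Both medians depended on which BN DA array was kept, as given above, and a link to Ppargc1a was not tested.

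Hif1a, a subunit of the oxygen-regulated factor HIF-1, was higher in BN DA than in F344 DA by 0.59 ± 0.13 (limma adjusted p = 0.0347). It read 9.88 and 9.87 on the BN DA arrays and 9.33 and 9.24 on those of F344 DA, while the 4 aorta arrays lay between 9.42 and 9.74. Of the factors whose core letters were searched in the promoters, Gabpa, Nrf1 and Esrra were compared by level and did not pass. Gabpa differed by -0.33 between tissues in F344, 0.15 in BN, 0.34 between strains in the DA and -0.15 in the aorta. For Nrf1 these differences were -0.24, -0.17, 0.24 and 0.17, and for Esrra -0.09, -0.08, -0.08 and -0.09. Tfam, which packages and transcribes mitochondrial DNA, differed by -0.24, -0.02, 0.22 and 0.00, Cycs, cytochrome c, by 0.01, 0.30, -0.07 and -0.36, and Ppargc1b by 0.21, 0.12, 0.01 and 0.10, and none of these passed.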

How the data were processed

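Affymetrix Rat Gene 1.0 ST arrays of 8 samples, 2 in each of 4 groups, were used as deposited. The deposited values are on the log2 scale, judged from their range, and RMA is named per the submitters' processing notes; its settings, its version, any filter and the genome build are not stated by any label or header read here. The number of arrays limits the precision. The platform annotation gave 1 gene symbol for 15310 of 29215 probe sets, several for 323, and left 13582 unnamed here, and the table held 0 columns of other samples. The probe set with the highest mean was kept for each gene (14506 genes). All 80 members matched RefSeq by Entrez number with the same symbol, and 11 had more than 1 probe set. A further probe set, shared by a member and another symbol, was left out.

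A mean was fitted for each group over all 8 arrays with limma 3.58.1 in R 4.3.3 (lmFit, contrasts.fit, eBayes; 4 residual and 5.25 prior degrees of freedom), two-sided, in 5 contrasts: the tissue difference (DA minus aorta) within each strain, the strain difference (BN minus F344) within each tissue, and the interaction. The p-values were adjusted by Benjamini-Hochberg over all genes and called under 0.05. Brighter genes are those with a mean above the median gene (7.48); 71 members were among them. The procedure was tested on simulated data with independent noise of equal spread on all arrays of a gene. That test does not cover the unequal spread of the groups or the correlated replicate differences seen here. Medians over lists are descriptions with no test.

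The members and gene lists were chosen with earlier results of these data known. Named members were, in each contrast, those called or otherwise the 5 with the smallest p. Also named were the isoforms, the core subunits, the 6 with the largest difference between the BN DA arrays, and typical members. Of other lists, called genes and the regulators were named; genes singled out beyond these were chosen after their values were seen. Alternatives changed the moderation, filter, normalization, probe set rule, array weights, block, arrays in the fit and replicates. Replicate numbers were checked for pairing by correlating, over all genes, the replicate difference of 6 pairs of groups.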

Additional observations from a re-analysis of the deposited data

How the results depend on the processing

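Each alternative setting was counted once for each contrast it was run in. Counts of called genes kept their side in 78 such pairs of setting and contrast, rose in 8 and fell in 8. Medians moved by less than the pooled replicate spread (0.20) in 80 pairs and by more in 4. Between tissues in F344, 1 gene (1.25%) passed with the deposited values, against 14% of all genes. After repeated quantile normalization 2 passed (Atp5if1 and Cox8b), against 10.5% of all genes. Centring on brighter genes or array weights also gave 2 (Atp5if1 and Cox4i2), against 16.6% and 25.6% of all genes. In each of these fits the 2 genes were 2.5% of the 80. In the fit with only the arrays compared 4 passed (Atp5if1, Cox4i2, Cox8c and Ndufa6), or 5%, against 23.2% of all genes in that fit. Leaving out single arrays gave 0 to 1 there, 0 to 2 between tissues in BN and 0 to 7 between strains in the DA, where the fit of only the arrays compared gave 0. The share of all genes called also fell in some of these single-array fits and rose in others, in each of these comparisons. With only the arrays compared, 0.813% of all genes were called between strains in the DA, against 4.53% in the fit of all 8 arrays. These counts therefore cannot be read as instability of the 80 genes alone. Medians without single arrays ranged from -0.12 to 0.32 between tissues in BN, from -0.21 to 0.21 between strains in the DA and from -0.13 to 0.28 for the interaction. Centring moved the F344 tissue median to 0.21. No called difference of a named gene changed direction in the settings run. Causes of these changes were not tested, except that fits with fewer arrays have fewer degrees of freedom.

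The correlations between groups of the replicate difference ran from 0.03 to 0.52, with 5 of 6 over 0.1. The lowest was F344 aorta with BN DA. Because 1 pair fell short and no label ties the numbers to a shared source, the arrays were not treated as paired, although same-numbered arrays of most groups deviated together. With the replicate block 2 genes passed between tissues in F344 (Atp5if1 and Cox4i2), against 1 without it, and counts of members in the other contrasts were the same. Over all genes the block raised the calls from 14% to 19.8% between tissues in F344, from 1.81% to 3.78% in BN and from 4.53% to 10.9% between strains in the DA. Array weights were 0.548 for BN DA and 1.68 for F344 aorta.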
